A study of Rattus norvegicus with 9 samples.

Results

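The genes described are 10 tubulins and microtubule-associated proteins, chosen by name: Tubb3, Tubb2a, Tubb2b, Tubb5, Tuba1a, Tuba4a, Map2, Mapt, Map1b and Map1a. A probe set is the group of short probes on the array that reads 1 transcript. Of the 10 genes, 9 had a probe set annotated with that symbol alone, out of 10411 such genes on the array, and these 9 had 15 probe sets. Tuba1a shared its probe set with other alpha-tubulin genes and was not analysed as a gene. RNA came from rat ventral midbrain at embryonic day 11 (MesE11, 3 arrays) or from primary cultures of dissociated ventral midbrain after 9 days in vitro (MesPC, 6 arrays). Neither group carried a transgene or received a drug, as far as the labels say. Per the labels, embryos of 4 pregnant rats were mixed into 3 groups, each group gave a tissue pool, and cells of each group were grown in duplicate dishes. The labels also speak of 3 independent culture samples, while 6 culture arrays are listed, so how many cultures were independent is not settled. The p-values therefore describe array-to-array spread, which may be technical.

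Microtubules are hollow polymers of alpha- and beta-tubulin pairs, and vertebrates make several isotypes of each from separate genes. Neurons are rich in microtubules, which hold up axons and dendrites and serve as tracks for kinesin and dynein motors. Microtubule-associated proteins bind along the polymer and stabilise or space it: MAP2 is best known from dendrites, tau (Mapt) from axons, MAP1B from growing axons and MAP1A from mature neurons. Class III beta-tubulin (Tubb3) is widely used as a marker of neurons, whereas Tubb5 is made in many cell types, dividing ones included.

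The beta-tubulin genes code for closely similar proteins, so the stretch before each gene's start is shown to set the 4 genes apart at the level of sequence. The windows are the 200 bases before the annotated start, 5′ to 3′ on the gene's strand, from RefSeq on the build GRCr8. They lie on the plus strand at chr19:68365487-68365686 (Tubb3), chr17:31001986-31002185 (Tubb2a), chr17:30952886-30953085 (Tubb2b) and chr20:2917377-2917576 (Tubb5). Capitals mark matches on either strand to TATAA, to CCAAT and to GGGCGG, the letters of the TATA, CCAAT and GC boxes.
Tubb3: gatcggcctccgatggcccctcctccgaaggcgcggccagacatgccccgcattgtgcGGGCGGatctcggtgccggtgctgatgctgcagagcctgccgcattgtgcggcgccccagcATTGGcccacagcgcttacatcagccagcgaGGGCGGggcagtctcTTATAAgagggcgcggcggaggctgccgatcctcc
Tubb2a: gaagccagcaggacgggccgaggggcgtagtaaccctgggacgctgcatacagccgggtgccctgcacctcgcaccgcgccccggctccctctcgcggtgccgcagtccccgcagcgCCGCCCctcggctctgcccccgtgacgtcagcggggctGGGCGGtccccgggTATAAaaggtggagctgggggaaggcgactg
Tubb2b: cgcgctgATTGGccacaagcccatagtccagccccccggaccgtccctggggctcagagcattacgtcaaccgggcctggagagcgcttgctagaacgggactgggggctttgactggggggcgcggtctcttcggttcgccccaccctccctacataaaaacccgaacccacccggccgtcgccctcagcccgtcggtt
Tubb5: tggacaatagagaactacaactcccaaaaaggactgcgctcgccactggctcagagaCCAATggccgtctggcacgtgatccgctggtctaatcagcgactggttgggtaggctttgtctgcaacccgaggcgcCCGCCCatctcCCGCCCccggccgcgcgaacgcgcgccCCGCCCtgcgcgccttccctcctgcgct
The TATAA letters stood at bases −34 to −30 of Tubb3, where they also match on the other strand 1 base earlier, and at −31 to −27 of Tubb2a. Tubb2b and Tubb5 had no such match in the window. Over the windows of all 33469 RefSeq genes of the table, 19.7% held TATAA, 29.2% CCAAT and 28.6% GGGCGG on either strand. A match describes the letters alone. In the RefSeq gene table Tubb2a and Tubb2b lie on chromosome 17 with 1 gene, Tubb2al1, between them. Tubb2b is also an older synonym of Tubb2a. Matching the annotation to that gene table by Entrez number changed 0 symbols. Whether each probe set reads the gene of this pair that it is named for could not be checked.

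Values are log2 intensities normalized between arrays by the authors, and differences are culture minus tissue ± standard error, from limma's fit of 6 culture against 3 tissue arrays unless stated otherwise. A gene counts as lower or higher where its Benjamini-Hochberg adjusted p, taken across the 15866 probe sets that were tested, is under 0.05. For a gene with several probe sets the brightest stands for it. The tissue arrays resembled each other (Pearson's r across probe sets, which are not replicates, 0.995 to 0.997), while the culture arrays lay in sets numbered 1 to 3 and 4 to 6, with r of 0.997 to 0.998 within a set and 0.982 to 0.987 across. Tissue arrays had r of 0.943 to 0.953 with culture arrays 1 to 3 and of 0.966 to 0.974 with arrays 4 to 6. Across all probe sets, arrays 4 to 6 were thus nearer to tissue. The labels name nothing that separates the culture sets, which were recognised from these same values. Control probe sets for bacterial genes read up to 6.68, which gives a view of background. The ventral midbrain label was checked against its 5 measured markers. In tissue Spon1 averaged 11.73, Otx2 10.23 and Foxa2 9.61. Shh, at 7.05, was little above the bacterial range, and Foxa1, at 5.69, lay within it.

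In culture, 3 of the 9 genes were lower than in embryonic midbrain and 0 were higher. These were Tuba4a, Tubb2a and Tubb5. Of all 10411 genes 22.7% were lower and 21.9% higher, so 3 of 9 is near the background. The median difference of the 9 genes was −0.35, against −0.06 for all genes. Counting all 15 probe sets, 6 were lower and 0 higher. The count of 3 genes was 5 without MesPC replicate 5 or 6 and 2 without MesE11 replicate 2 or 3. The larger differences, those of Mapt and Tubb3, did not pass, because culture arrays 1 to 3 and 4 to 6 read far apart. Set against the tissue on their own, culture arrays 1 to 3 had 8 of 9 genes lower (27.0% of all genes lower, 25.7% higher) and arrays 4 to 6 had 5 of 9 lower (27.2% and 22.9%), with 0 higher in either. Both comparisons share the tissue arrays, and whether the arrays within a set came from separate cultures is not known. With a random block for the array sets, 1 of the 9 genes was lower, Tuba4a, where 9.11% of all genes were lower and 13.2% higher. That fit also took the 3 tissue arrays as 1 block, although the labels describe separate tissue pools. It used 1 correlation, 0.447, for all probe sets.

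**Figure D1:**
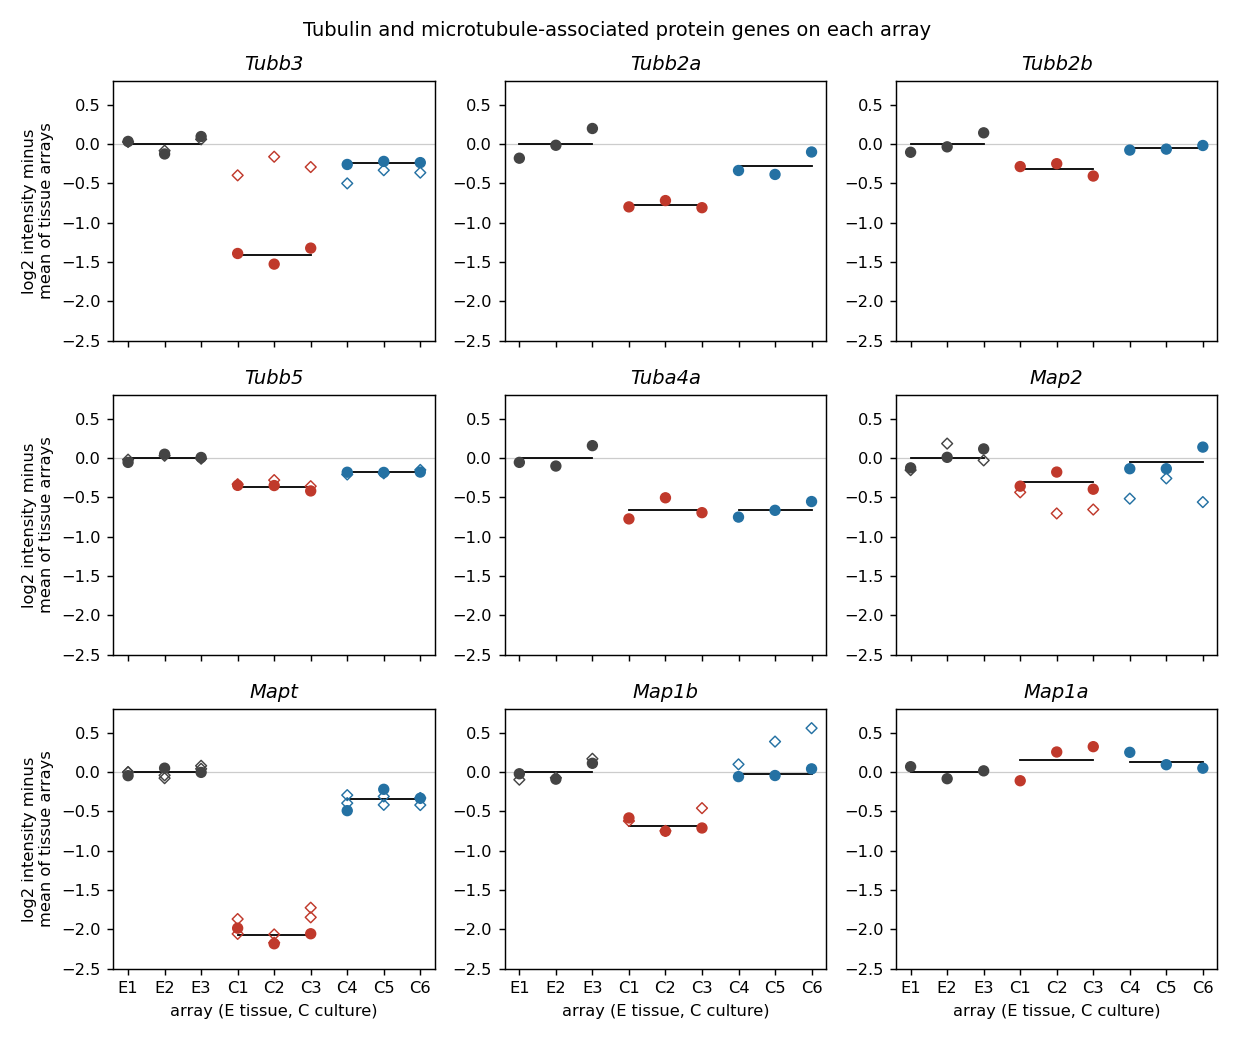
Log2 intensity of each gene on each array minus the mean of its 3 tissue arrays. Filled circles are the brightest probe set, open diamonds the other probe sets, black lines the mean of each set of 3 arrays (grey tissue E1 to E3, red culture C1 to C3, blue culture C4 to C6). On their brightest probe sets Mapt and Tubb3 sit far below tissue on C1 to C3 and close to it on C4 to C6. Tuba4a is equally low on both.

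Tubb3, the class III beta-tubulin of neurons, read 13.10, 12.94 and 13.16 on the tissue arrays, 11.68, 11.54 and 11.74 on culture arrays 1 to 3, and 12.81, 12.85 and 12.83 on culture arrays 4 to 6. The 6 culture values all lay below the tissue values, and the culture sets did not overlap. Over all culture arrays the difference was −0.83 ± 0.33 (adjusted p = 0.0662) and did not pass. Against arrays 1 to 3 alone Tubb3 fell by 1.41 ± 0.08, or 2.67-fold, and against arrays 4 to 6 alone by 0.24 ± 0.07, or 1.18-fold. The call over all arrays was reached without MesPC replicate 4 (−0.94, adjusted p = 0.0458), 5 (−0.95, 0.0417) or 6 (−0.94, 0.0415). It was also reached when each array was centred on its median (−0.86, 0.0482), and with the mean of both Tubb3 probe sets (−0.58, 0.0121). That mean takes in the dim probe set described next, so its lower adjusted p is not separate support for the call. A second Tubb3 probe set was dim, at 6.61 to 6.76 in tissue and 6.20 to 6.54 in culture. It fell by 0.34 ± 0.07 (adjusted p = 0.00503), a call that ended with the random block (0.0733), and 7 of its 9 values did not exceed the highest bacterial control. On this dim probe set the culture sets overlapped, at 6.30 to 6.54 on arrays 1 to 3 and 6.20 to 6.37 on arrays 4 to 6. The bright Tubb3 probe set carries the suffix that Affymetrix gives to probes matching several transcripts, so reads of similar beta-tubulins cannot be set apart from Tubb3 there.

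The other beta-tubulins differed less. Tubb2a read 13.36, 13.53 and 13.74 in tissue, 12.74, 12.82 and 12.73 on culture arrays 1 to 3, and 13.21, 13.16 and 13.44 on arrays 4 to 6. Arrays 1 to 3 lay below every tissue array, while the highest value of arrays 4 to 6 overlapped the lowest of tissue. Tubb2a fell by 0.53 ± 0.16, or 1.44-fold (adjusted p = 0.0273). The call ended without MesE11 replicate 2 (adjusted p = 0.0692) or 3 (−0.43, 0.123) and with the random block (0.0917). Its neighbour Tubb2b, whose loss disturbs the migration of cortical neurons, read 14.03, 14.10 and 14.28 in tissue, 13.85, 13.88 and 13.73 on arrays 1 to 3, and 14.06, 14.07 and 14.12 on arrays 4 to 6. Tubb2b did not pass (−0.18 ± 0.10, adjusted p = 0.143). Arrays 4 to 6 overlapped tissue, and arrays 1 to 3 lay below it.

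Tubb5, the broadly made beta-tubulin, read 14.30, 14.40 and 14.36 in tissue, 14.00, 14.00 and 13.93 on culture arrays 1 to 3, and 14.17, 14.17 and 14.17 on arrays 4 to 6. All culture values lay below all tissue values. Tubb5 fell by 0.28 ± 0.07, or 1.21-fold (adjusted p = 0.0110), and a second probe set fell by 0.25 ± 0.06 (adjusted p = 0.00717). With the random block both calls ended (adjusted p = 0.0704 and 0.0701). The brightest probe set ranked from 3 to 26 among the 15866 on the 9 arrays, close to the top of the scale. The part of that position in the size of the difference was not tested.

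Tuba4a, an alpha-tubulin isotype, gave the change least dependent on the culture set. It read 7.80, 7.75 and 8.01 in tissue, 7.08, 7.35 and 7.16 on culture arrays 1 to 3, and 7.10, 7.19 and 7.30 on arrays 4 to 6. All culture values lay below all tissue values, and the culture sets overlapped. These culture values, 7.08 to 7.35, were not far above the highest bacterial control, 6.68. The part of that nearness in the size of the difference, or in the overlap of the culture sets, was not tested. Tuba4a fell by 0.66 ± 0.08, or 1.58-fold (adjusted p = 1.8e-04), and by 0.66 against either set alone. It was lower in 6 of 6 culture arrays and stayed past the threshold with the random block (adjusted p = 0.00770). The probe set shared by Tuba1a, Tuba1b and Tuba1c read 14.64 to 14.76 in tissue and 14.60 to 14.78 in culture. It was the brightest of all tested probe sets on 9 of 9 arrays. RMA evens out the distribution of probe intensities between arrays, which leaves the brightest probe set little room to differ. Its difference of −0.01 ± 0.06 therefore does not measure whether these genes changed.

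**Figure D2:**
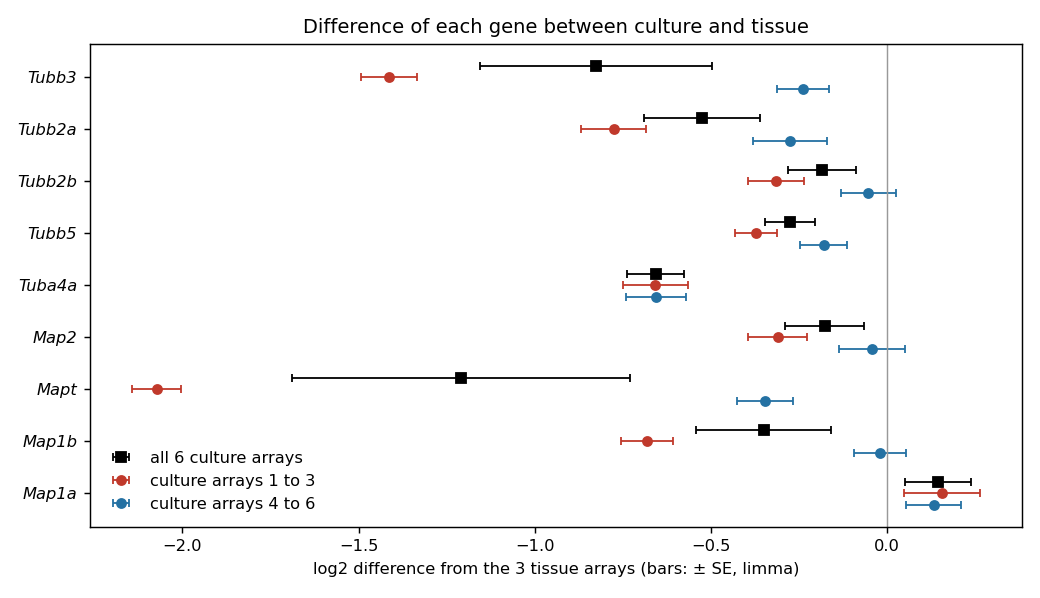
Difference of each gene from the 3 tissue arrays on the log2 scale, for all 6 culture arrays (black squares), arrays 1 to 3 (red) and arrays 4 to 6 (blue), with bars of 1 standard error from limma. The 2 sets stand farthest apart for Mapt (−2.07 and −0.35) and Tubb3 (−1.41 and −0.24) and coincide for Tuba4a.

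Among the microtubule-associated proteins Mapt, the gene of tau, differed most. Its brightest probe set read 13.29, 13.39 and 13.33 in tissue, 11.35, 11.16 and 11.28 on culture arrays 1 to 3, and 12.85, 13.12 and 13.01 on arrays 4 to 6. Every culture value lay below every tissue value, and the sets were more than 1 log2 unit apart. Over all culture arrays Mapt differed by −1.21 ± 0.48 (adjusted p = 0.0651), which did not pass. Its other probe sets gave −1.22 ± 0.45 (0.0513) and −1.10 ± 0.44 (0.0670). Against arrays 1 to 3 alone Mapt fell by 2.07 ± 0.07, or 4.21-fold, and against arrays 4 to 6 alone by 0.35 ± 0.08, or 1.27-fold (adjusted p = 0.00485). Without MesPC replicate 5 or 6 the pooled difference passed (−1.41, adjusted p = 0.0341, and −1.39, 0.0397).

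Map1b, which supports axon growth, read 13.96, 13.89 and 14.09 in tissue, 13.40, 13.23 and 13.27 on arrays 1 to 3, and 13.92, 13.94 and 14.02 on arrays 4 to 6. Arrays 4 to 6 overlapped tissue, and arrays 1 to 3 lay below both. The pooled difference of −0.35 ± 0.19 did not pass (adjusted p = 0.159), while arrays 1 to 3 alone were lower by 0.68 ± 0.07, or 1.60-fold. A dimmer Map1b probe set read 8.21 to 8.47 in tissue, 7.56 to 7.85 on arrays 1 to 3 and 8.40 to 8.86 on arrays 4 to 6. Against tissue it fell by 0.61 ± 0.09 on arrays 1 to 3 and rose by 0.35 ± 0.11 on arrays 4 to 6 (adjusted p = 0.0272).

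Map2, the dendritic protein, read 12.10, 12.24 and 12.34 in tissue, 11.87, 12.05 and 11.83 on arrays 1 to 3, and 12.09, 12.09 and 12.37 on arrays 4 to 6 on its brightest probe set. Arrays 4 to 6 overlapped tissue, and the pooled difference of −0.18 ± 0.11 did not pass (adjusted p = 0.214). Its dimmer probe set read 10.03 to 10.37 for tissue against 9.48 to 9.92 for culture, with no shared values, and fell by 0.52 ± 0.11, or 1.44-fold (adjusted p = 0.00345). That call ended with the random block (adjusted p = 0.0556). With the mean of both probe sets Map2 was lower by 0.35 (adjusted p = 0.00845). Map1a, the MAP1 protein of mature neurons, read 10.17, 10.01 and 10.11 in tissue, 9.99, 10.35 and 10.42 on arrays 1 to 3, and 10.35, 10.19 and 10.15 on arrays 4 to 6. All groups overlapped, and the difference of 0.14 ± 0.09 did not pass (adjusted p = 0.234).

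Between the culture sets, which is a description with no test, arrays 1 to 3 all lay below arrays 4 to 6 in 7 of 9 genes and all above in 0. Of all genes 22.4% lay all below and 26.0% all above. The median difference between the sets, arrays 1 to 3 minus 4 to 6, was −0.27 for the 9 genes and 0.03 for all genes. The gap was −1.73 for Mapt, −1.17 for Tubb3, −0.66 for Map1b, −0.50 for Tubb2a, −0.27 for Map2, −0.26 for Tubb2b and −0.19 for Tubb5. These are gaps of the brightest probe sets. On the dimmer probe sets of Tubb3 (0.12) and Map2 (−0.15) the culture sets overlapped. The other probe sets of Mapt, Map1b and Tubb5 kept the order. The sets overlapped for Tuba4a (−0.002) and Map1a (0.02). Within a set the standard deviation of Mapt was 0.10 and 0.14, far below the gap, and that of Tubb3 was 0.10 and 0.02.

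The genes whose pattern was nearest to Tubb3 over the 9 arrays, each set to 0 at its tissue mean, were Elavl4, Gap43 and Stmn3, at root mean square distances of 0.06, 0.08 and 0.08 log2 units. Elavl4 encodes a neuronal RNA-binding protein, Gap43 a growth cone protein and Stmn3 a stathmin that binds tubulin. The nearest to Mapt were Gabrb2 (0.09), a GABA receptor subunit, Dnajc6 (0.12), the clathrin uncoating factor auxilin, and Caly (0.13). The nearest to Tubb5 were Ccdc126, Srrd and Btbd1 (each at 0.04), and to Map2 Itga3 (0.06), Rtn3 (0.07) and Tubb2b (0.07). Ccdc126 averaged 6.53 in tissue and 6.19 and 6.34 in the culture sets, below the highest bacterial control (6.68). Distances are a description over arrays that fall into 3 clusters, and small patterns such as that of Tubb5 have many near neighbours.

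**Figure D3:**
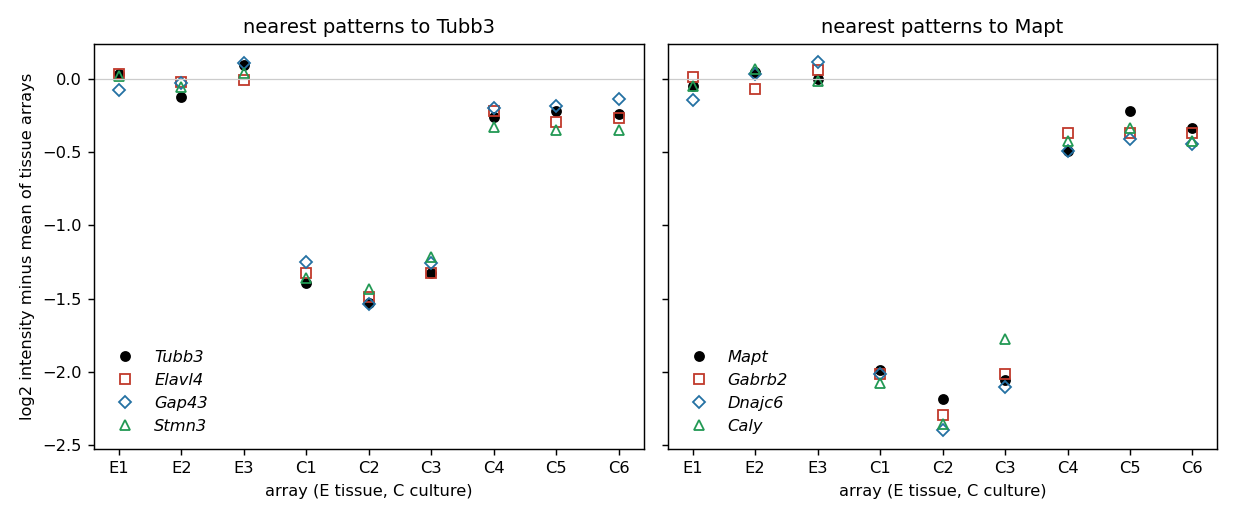
Log2 intensity minus the tissue mean on each array for Tubb3 and Mapt (filled black circles) and the 3 genes nearest in pattern (open symbols). Elavl4, Gap43 and Stmn3 follow Tubb3 on culture arrays 1 to 3 and 4 to 6 alike, at a distance of 0.06 to 0.08.

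Further microtubule genes were looked up in lists by function, of whose 134 genes 103 had a probe set of their own. Of the 103 genes 38 were lower in culture and 7 higher, where 22.7% of all genes were lower and 21.9% higher. With the random block 19 were lower and 7 higher, against 9.11% and 13.2% of all genes. The fixed lists were tubulins outside the 10 genes, folding, other microtubule-binding proteins, tubulin-modifying enzymes, kinesins, dynein and dynactin, and kinases and phosphatases. Of the other tubulins 2 of 4 rose and 1 fell (median 0.47). Tubb6, a beta-tubulin found in many non-neuronal cells, rose by 1.25 ± 0.20, from 8.89 to 10.14, and Tubb4b, a widely made isotype also found in cilia, by 0.63 ± 0.07, from 12.04 to 12.67. For both, culture arrays 1 to 3 all read above arrays 4 to 6, the opposite order to that of Tubb3. Tuba8 fell by 0.43 ± 0.07.

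Of the folding genes 9 of 18 fell and 0 rose (median −0.20), or 2 with the random block, Tbcb and Pfdn5. Tbcb, a cofactor that helps fold alpha-tubulin, fell by 0.72 ± 0.15, Pfdn5, a prefoldin subunit, by 0.58 ± 0.11, and Arl2, a GTPase that acts with the cofactors, by 0.40 ± 0.10. The chaperonin subunits Cct4 and Tcp1 fell by 0.29 ± 0.06 and 0.22 ± 0.05. With the random block Arl2 (adjusted p = 0.0813), Cct4 (0.0682) and Tcp1 (0.102) did not pass. Of the tubulin-modifying enzymes 6 of 9 fell and 1 rose (median −0.33), or 4 and 1 with the random block. Vash2, a tubulin carboxypeptidase that removes the last tyrosine, fell by 1.34 ± 0.23, Agtpbp1, which trims glutamates from tubulin, by 0.78 ± 0.21, and Ttll7, a polyglutamylase, by 0.73 ± 0.12. Sirt2, a deacetylase that can act on tubulin, rose by 0.91 ± 0.07.

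Of the other microtubule-binding proteins 13 of 31 fell and 3 rose (median −0.26), or 7 and 3 with the random block. Mtus2 fell by 1.77 ± 0.39, and the stathmins Stmn4 and Stmn2, which bind tubulin dimers, were also lower (−1.32 ± 0.32 and −1.16 ± 0.39). Stmn2 did not pass with the random block (adjusted p = 0.0546). Tppp3, a tubulin-polymerising protein, rose by 1.19 ± 0.10 and Nde1, a dynein regulator that also acts at mitosis, by 0.69 ± 0.20. Dclk1, a doublecortin-like kinase with several transcripts, rose by 0.83 ± 0.09 on its brightest probe set, whereas a second probe set fell by 1.25 ± 0.35 (adjusted p = 0.0179) and the remaining 1 gave −1.16 ± 0.44 (0.0549), so its probe sets disagree. Dcx, doublecortin, did not pass (−0.68 ± 0.30, adjusted p = 0.0910). Dcx averaged 12.54 in tissue, 11.33 on culture arrays 1 to 3 and 12.40 on arrays 4 to 6.

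Among the motors 3 of 10 kinesin genes fell (median −0.18) and 2 of 14 dynein and dynactin genes fell (median −0.11), with 0 higher in either list. With the random block 2 kinesin genes and 1 dynein and dynactin gene were lower. The kinesin count is near the 22.7% of all genes that were lower, and the dynein count is not above it. Kif5a, the neuronal conventional kinesin, fell by 0.79 ± 0.11, while its broadly made relative Kif5b did not pass (0.05 ± 0.06, adjusted p = 0.509). The light chains Klc1 and Klc2 differed by −0.67 ± 0.23 and −0.56 ± 0.11, both lower by the test, but the probe sets of Klc1 disagree, 1 of them being higher by 0.96. Dctn6, a dynactin subunit, fell by 0.62 ± 0.15 and Dync1li2, a dynein light intermediate chain, by 0.36 ± 0.09. Klc1 (adjusted p = 0.0644) and Dync1li2 (0.0661) did not pass with the random block. Of the kinases and phosphatases 4 of 17 fell and 1 rose (median −0.14), which for the lower genes is near the 22.7% of all genes. With the random block 2 were lower and 1 higher. Cdk5r1, the p35 activator of the tau kinase Cdk5, fell by 0.86 ± 0.16, Ppp2ca, a catalytic subunit of phosphatase 2A, by 0.79 ± 0.16, and Mapk8 by 0.65 ± 0.21. Mapk8 did not pass with the random block (adjusted p = 0.0559). Fyn rose by 0.38 ± 0.07 on its brightest probe set, while its other probe set gave −0.07.

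**Figure D4:**
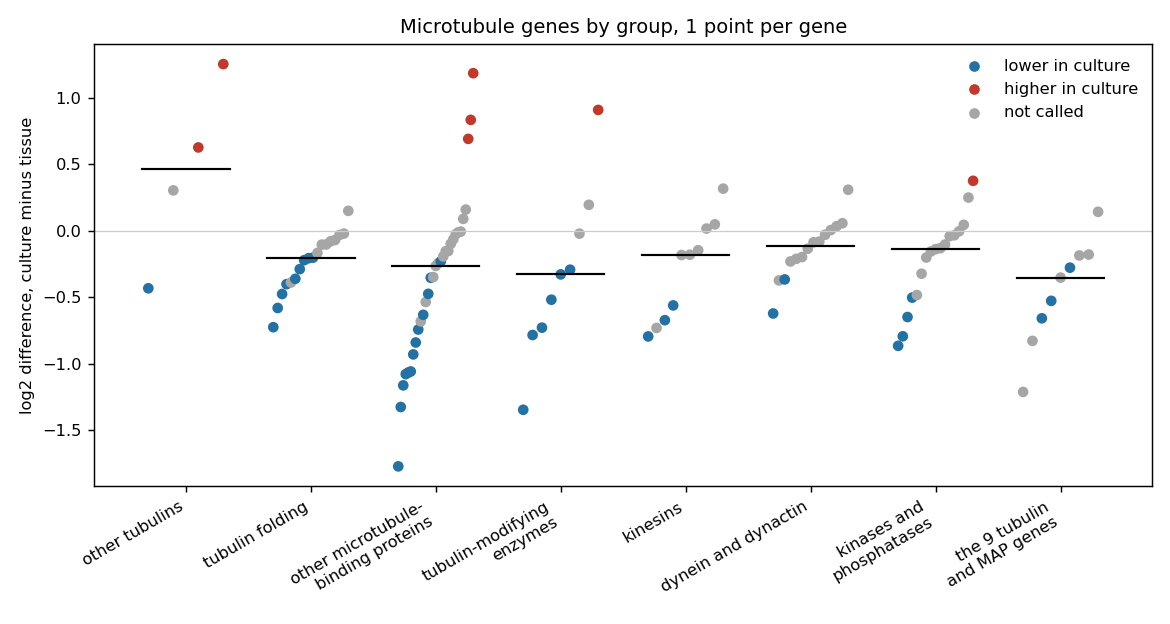
Log2 difference, culture minus tissue, of each gene in the 7 microtubule lists and of the 9 tubulin and microtubule-associated protein genes, with 1 point per gene and a black line at the median. Blue and red points passed limma's test and grey points did not. The median lay above 0 in the list of other tubulins, where Tubb6 and Tubb4b rose, and below 0 in every other list. Single genes also rose in some of those lists, among them Tppp3 (1.19), Sirt2 (0.91) and Fyn (0.38).

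Markers of cell types also differed between culture and tissue, in a direction that depended on the list. The counts that follow stand against 22.7% of all genes lower and 21.9% higher. Neuron markers were lower in 7 of 9 cases and higher in 0. Their mean level was 11.91 to 11.99 on the tissue arrays, 10.09 to 10.38 on culture arrays 1 to 3 and 11.29 to 11.30 on arrays 4 to 6, and arrays 1 to 3 lay below arrays 4 to 6 in 9 of 9 markers. Elavl4 and Gap43, near Tubb3 in pattern, are also in that list. Markers of dividing cells were higher in 6 of 6, with mean levels of 8.51 to 8.74, 10.51 to 10.65 and 9.94 to 10.13 in the same order of arrays. Fibroblast markers were higher in 7 of 7 (8.64 to 8.94, 12.13 to 12.31 and 12.09 to 12.17) and astrocyte markers in 6 of 8 (9.10 to 9.33, 10.16 to 10.21 and 10.03 to 10.10). Probe sets disagreed for Aqp4 (brightest 1.84, others 0.05 and −0.42), Gja1 (1.66, others −0.31 and 0.36) and Slc1a3 (0.78, others −0.74 and 1.04). The higher astrocyte markers Aldoc, S100b and Mlc1 had no other probe set. Otx2, a ventral midbrain marker, gave 0.87 on its brightest and −0.25 on its other probe set. Of the other lists, dopaminergic markers were lower in 6 of 7, oligodendrocyte markers in 1 of 6, microglia in 3 of 6, erythroid in 4 of 4 and endothelium in 3 of 4, while 3 of 5 ventral midbrain markers were higher. With the random block 6 neuron, 5 dopaminergic and 2 microglia markers were lower and 5 astrocyte markers higher, and the counts of the other marker lists were as before. In such bulk samples fewer cells of a type and less RNA per cell cannot be told apart, and the part of the cell mixture in the tubulin and microtubule-associated protein values was not tested.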

How the data were processed

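Affymetrix rat expression arrays of 3 tissue and 6 culture samples were compared. The authors deposited log2 intensities made with RMA, per the submitters' processing notes; the sources used here do not name its version. RMA makes arrays nearly alike in distribution, so differences are relative to the other probe sets. Array medians ran from 8.61 to 8.67.

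Of 15923 probe sets, 57 controls were left out. The array's annotation gave 12783 probe sets 1 symbol and 312 several; 2771 were not listed. A RefSeq gene table (GRCr8) held the Entrez number of 12748 and changed 0 symbols. limma 3.58.1 in R 4.3.3 (lmFit, eBayes) was run on all tested probe sets, two-sided, with Benjamini-Hochberg adjustment at 0.05, and was checked on simulated data. The simulated arrays were independent and held no culture sets, so the check does not cover that structure. No array weights or set tests were used. For each gene the probe set with the highest mean over 9 arrays was taken.

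The genes, lists and tests were chosen with earlier results of these arrays known. The text names all 10 genes and, in each microtubule list, up to 3 called genes per direction with the largest change and no overlap between culture and tissue, plus the 3 nearest patterns of Tubb3, Tubb5, Map2 and Mapt. Tubb2al1, Cct4, Tcp1, Dcx and Kif5b and the cell type markers given by value were added after their values were seen. Alternatives were quantile normalization, centring, a filter on the dimmest 40%, each culture set alone, a random block, averaged culture sets, a replicate block, a trended prior, averaging the probe sets of each gene and leaving out each array. Figures were drawn with matplotlib 3.10.9.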

Additional observations from a re-analysis of the deposited data

Results flagged for a closer look

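The dimmer probe set of Map1b lay below the tissue mean on all of culture arrays 1 to 3 and above it on all of arrays 4 to 6, with the sets 0.96 log2 units apart. The difference between the sets was not tested, since they were recognised from these arrays. No member probe set had a single culture array standing apart from the other 5 by Dixon's criterion for 6 samples (0.625). That criterion divides the gap at 1 end by the range of all 6 values. In 11 of the 15 probe sets culture arrays 1 to 3 all lay below arrays 4 to 6, so the range includes the gap between the sets. For those probe sets the result says little about an array within its own set.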

How the results depend on the processing

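The direction of every one of the 9 genes' differences was kept under each alternative run that held the gene. The filter on the dimmest 40% left out Tuba4a and gave 2 of 8 genes lower. The count of 3 genes lower became 1 with the random block and with culture sets averaged to 2 samples, 5 with the probe sets of each gene averaged and with culture arrays 4 to 6 alone, and 8 with arrays 1 to 3 alone. The 6 lower probe sets became 1, 3, 10 and 14 with the random block, averaged sets, arrays 4 to 6 alone and arrays 1 to 3 alone; with arrays 4 to 6 alone 1 was higher. Leaving out single arrays gave 2 to 5 genes and 5 to 10 probe sets lower, with 5 genes and 10 probe sets without MesPC replicate 5 or 6. The replicate block over numbers 1 to 3, which leaves out MesPC 4 to 6, gave 8 genes and 14 probe sets lower. Same-numbered arrays had correlations of their deviations of −0.12 to 0.08, so the numbers were not taken to pair the samples.

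Over all probe sets, 3565 lower and 3128 higher became 1348 and 1879 with the random block, 1538 and 2066 with averaged sets, 1936 and 2663 without the dimmest 40%, and 4679 and 2586 when centred on ribosomal protein probe sets. Without single arrays 2241 to 3458 were lower and 2484 to 3171 higher, the lowest count of lower ones without MesE11 replicate 3. The comparison of culture sets gave 6 or 7 of 9 genes under 3 scalings added after the data were seen. The number of arrays limits the precision, and Tubb5 and Tubb2b lie near the top of the intensity scale.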
